A study of Mus musculus with 6 samples.

Results

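The regions described are 1316 broad H3K27me3 peaks of the mouse Ewing sarcoma line ES49, each at least 1500 bp wide, that lie outside the 200 largest H3K27me3 domains of that line. They were chosen by measured values of the H3K27me3 list itself. Peaks with gaps under 12.5 kb were joined into 4750 domains, the domains were ranked by the summed width of their peaks, and the broad peaks of chromosomes 1 to 19 outside the first 200 were kept. They are 6.78% of the 19412 H3K27me3 peaks on these chromosomes and 61.1% of the 2155 that reach the width minimum. The other 839 broad peaks lie in the largest domains, and 9 broad peaks on X and 7 on Y are not covered by the rule.

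H3K27me3 is laid down on histone H3 by Polycomb repressive complex 2 and is read by Polycomb repressive complex 1. In mammalian cells it is known to sit over CpG-rich promoters of silent developmental genes, as a peak of a few kilobases or, over gene clusters, as long blankets. H3K27ac marks active promoters and enhancers. Both marks use the same lysine, so a single histone tail carries one or the other.

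ES49 and ES48 are cultured lines of murine Ewing sarcoma cells induced by EWS-FLI1, the fusion oncoprotein of this tumour, on a Balb/c background, and no treatment was applied. H3K27me3 was mapped by ChIP-seq in ES49, H3K27ac in ES49 and ES48, and EWS-FLI1, precipitated through FLAG, in ES49 and ES48. Each is 1 sample, and the ES49 input DNA sample was not used here. There is no replication, so no test over samples exists, and every interval is a 95% Clopper-Pearson interval that covers counting error only. Neighbouring peaks are not independent, which makes the intervals too narrow. The lists hold no read counts, so depth is unknown. ES49 has 19560 H3K27me3 peaks covering 16.5 Mb, and 29652 H3K27ac peaks covering 35.8 Mb. ES48 has 25970 H3K27ac peaks covering 48.3 Mb, so the ES48 acetylation list offers more length to overlap. EWS-FLI1 has 681 peaks in ES49 and 614 in ES48. Each region is named by its mm9 position, as no gene annotation of that build was at hand. For the same reason the labelled cell type was not set against marker genes.

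The peaks outside the largest domains had a median width of 2489.5 bp, with quartiles of 1927 and 3463 bp and a range of 1501 to 10958 bp. Broad peaks inside the largest domains had a median of 2794 bp, with quartiles of 1920.5 and 4618 bp, and reached 35302 bp. Width was part of the rule, so these values are a description. Most peaks outside the domains were of moderate width, with 385 under 2000 bp, 837 of 2000 to under 5000 bp and 94 of 5000 bp or more. In the largest domains 180 broad peaks reached 5000 bp. The peaks outside the domains cover 3.82 Mb in all, 23.2% of the H3K27me3 length on chromosomes 1 to 19, and the largest domains hold 37.3% of it.

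**Figure D1:**
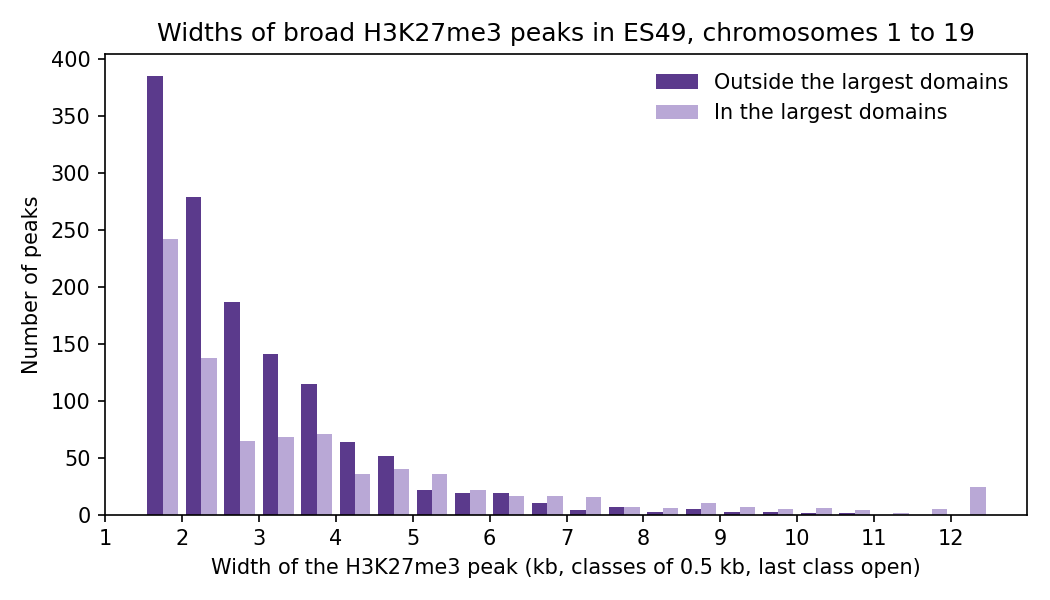
Number of H3K27me3 peaks of ES49 on chromosomes 1 to 19 (vertical axis) in classes of peak width (horizontal axis, kb), for broad peaks outside the largest domains (dark bars) and in them (light bars). The peaks outside number 385 below 2000 bp and thin out to a widest of 10958 bp, while 24 peaks in the largest domains reach 12 kb.

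Each peak carries the score of the authors' peak caller, whose scale is not stated. Many peaks share a score of exactly 3100, among them 108 of the 1316, and 9 of the 1316 lie above it. The peaks outside the largest domains had a median score of 903.8, with quartiles of 573.9 and 1655.1 and a lowest value of 150.9, against a lowest value of 50 in the whole list. All 1316 were in the upper 50% of the list by score. A score of 3100 or more was reached by 117 of them (8.89%), against 123 of the broad peaks in the largest domains (14.7%). Among the 1316, score went up with width (Spearman's rho = 0.90), a description over peaks of a single library in which both values come from the same reads.

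The threshold on width falls in a continuous range. The narrowest peaks kept were 1501 bp wide on chromosome 5 (40035075 to 40036575, score 451.6) and chromosome 6 (55401924 to 55403424, score 361.3). They were followed by 1502 bp peaks on chromosomes 10 and 12 and one of 1504 bp on chromosome 15. The widest peaks outside the largest domains that missed it were 1498 bp on chromosome 13 (48560480 to 48561977, score 249.6), 1494 bp on chromosome 3 and 1493 bp at 3 places on chromosomes 6 and 10. The domain ranked 200 had 14.51 kb covered by 3 peaks on chromosome 9, and the domain ranked 201 had 14.48 kb covered by 26 peaks on chromosome 11. At both limits the values on either side were close to each other.

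The working name of these regions, compact peaks, holds for part of them. Of the 1316, 193 (14.7%, 12.8 to 16.7) were alone, with no other H3K27me3 peak within 12.5 kb. A further 550 lay in stretches of 2 to 4 joined peaks, 365 in stretches of 5 to 9 and 208 in stretches of 10 to 26. For 992 peaks (75.4%) the nearest other H3K27me3 peak was less than 1 kb away, and the median gap was 172 bp. Inside the largest domains 94.9% of broad peaks had a neighbour that close. The peak held a median of 61.9% of the covered length of its own stretch, and 806 peaks held 50% or more. Around the peaks 40.3% of positions 2 kb from the middle were marked by H3K27me3, 11.8% at 5 kb and 5.21% at 10 kb. Around broad peaks in the largest domains 68.7%, 51.5% and 44.0% were marked at these distances, a difference that follows from leaving out the domains with the most H3K27me3.

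The 1316 peaks fell in 1123 stretches, of which 965 held 1 of them, 127 held 2, 27 held 3 and 4 held 4. These stretches spanned a median of 6.90 kb, with quartiles of 3.45 and 15.1 kb. Neighbouring peaks of the set were a median of 565.4 kb apart. The nearest of the largest domains was a median of 3.68 Mb away, and 99 peaks lay within 100 kb of one.

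Of the 117 peaks with a score of 3100 or more, 11 met ES49 H3K27ac, 22 met ES48 H3K27ac and 27 (23.1%) met either, against 13.7% of all 1316. Score went up with width among the 1316, and wider peaks offer more length to overlap. Chromosome 5, 137728143 to 137731749, came first with a score of 3210.6 over 3607 bp, and it stood alone, 121.3 kb from the next H3K27me3 peak. H3K27ac began 2.70 kb away in ES49 and 2.47 kb away in ES48, with scores of 2957.1 and 3100, so acetylated peaks of high score lay close by in both lines. Chromosome 12, 57633988 to 57639579, was second (3201.4, 5592 bp) and was 186.9 kb from H3K27ac in either line. Chromosome 7, 149843384 to 149848353, came next (3199.5). The fourth was chromosome 17, 24887155 to 24892307 (3170.6), 13.1 kb from ES49 acetylation. Of the 9 peaks above 3100, 0 overlapped ES49 H3K27ac and 1 overlapped ES48 H3K27ac. That was chromosome 11, 103510025 to 103518065, where 1910 of 8041 bp were shared with an ES48 peak of 5443 bp.

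The 5 widest peaks all had a score of 3100. Chromosome 3, 30404300 to 30415257, was 10958 bp wide, and its nearest acetylated peaks were weak ones 84.1 kb away in ES49 (score 94.4) and 83.3 kb away in ES48 (score 111.3). Chromosome 15, 7757340 to 7767833 (10494 bp), was 281 kb from ES49 H3K27ac and 116.2 kb from ES48 H3K27ac. On chromosome 5, 28784320 to 28794103 (9784 bp) was 139.7 kb and 138.6 kb away from acetylated peaks of score 3100 in ES49 and ES48. The fifth widest, chromosome 5, 31390118 to 31399432 (9315 bp), differed from these, since an ES48 acetylated peak of 1689 bp lay wholly inside it while ES49 acetylation was 10.1 kb away.

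The most isolated peaks were of ordinary width. Chromosome 8, 3586876 to 3588583 (1708 bp, score 594.9), was 7360 kb from any other H3K27me3 peak and held an ES48 acetylated peak of 629 bp. Chromosome 4, 34009957 to 34012725 (2769 bp), was 6694 kb from its neighbour, and 2 more peaks of chromosome 4, at 84850751 to 84852674 and 89353832 to 89356626, were each other's nearest at 4501 kb. Chromosome 15, 48621791 to 48623694 (1904 bp), lay in a stretch poor in both marks, 4040 kb from H3K27me3 and 2095 kb from ES49 H3K27ac.

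Acetylation was uncommon at these peaks, but more frequent per peak than over the H3K27me3 list as a whole. At least 1 bp was shared with ES49 H3K27ac by 70 of 1316 peaks (5.32%, 4.17 to 6.67), against 1.14% of all H3K27me3 peaks on chromosomes 1 to 19. The same was true of ES48 H3K27ac for 158 peaks (12.0%, 10.3 to 13.9), against 2.47% of all. In both lines at once 48 peaks did (3.65%, 2.70 to 4.81), against 0.737% of all. The remaining 1136 (86.3%) met H3K27ac in neither line. That share was not counted over the whole list, where overlap with the H3K27ac of each line was rarer. The H3K27ac lists were not used in choosing the peaks. Both marks use the same lysine, however, so a choice by H3K27me3 may not be independent of acetylation.

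Compared with broad peaks inside the largest domains, the intervals did not overlap. There 12 of 839 (1.43%, 0.741 to 2.49) met ES49 H3K27ac and 37 (4.41%, 3.12 to 6.03) met ES48 H3K27ac. The share was higher outside in each of 4 width classes, in both lines. Of the peaks of 1500 to under 2000 bp, 22 of 385 outside (5.71%, 3.62 to 8.52) and 1 of 242 inside (0.413%, 0.0105 to 2.28) met ES49 H3K27ac. For ES48 H3K27ac the counts in that class were 42 outside (10.9%) and 1 inside (0.413%). At 5000 bp or more 9 of 94 outside (9.57%, 4.47 to 17.4) and 6 of 180 inside (3.33%, 1.23 to 7.11) met ES49 H3K27ac; for ES48 the counts were 17 outside (18.1%, 10.9 to 27.4) and 19 inside (10.6%, 6.48 to 16.0). The intervals of the classes were apart for ES49 in the narrowest class, and for ES48 in that class and at 2000 to under 3000 bp. In the other classes they overlapped.

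The contrast with narrow peaks depended on how it was counted. Of the 12405 peaks under 1500 bp outside the largest domains, 125 (1.01%) met ES49 H3K27ac and 256 (2.06%) met ES48 H3K27ac. Counted per length of H3K27me3, however, the broad peaks outside had 18.3 overlapping peaks per Mb with ES49 H3K27ac, and the narrow peaks outside had 19.3. With ES48 H3K27ac the values were 41.4 per Mb for the broad and 39.5 per Mb for the narrow. Both kinds of peak in the largest domains were lower, at 3.72 (broad) and 4.81 (narrow) per Mb for ES49, and 11.5 and 9.97 per Mb for ES48. In overlapping peaks per Mb, the values outside the largest domains exceeded those inside for either width, and broad and narrow peaks of 1 position lay close together. Measured in shared bases, broad peaks exceeded narrow ones at both positions. Of the length of the broad peaks outside, 1.58% was also in ES49 H3K27ac peaks. The value was 0.750% for the broad peaks inside, 0.782% for the narrow peaks outside and 0.137% for the narrow peaks inside. For ES48 H3K27ac the values were 5.64%, 2.01%, 1.92% and 0.436% in the same order.

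**Figure D2:**
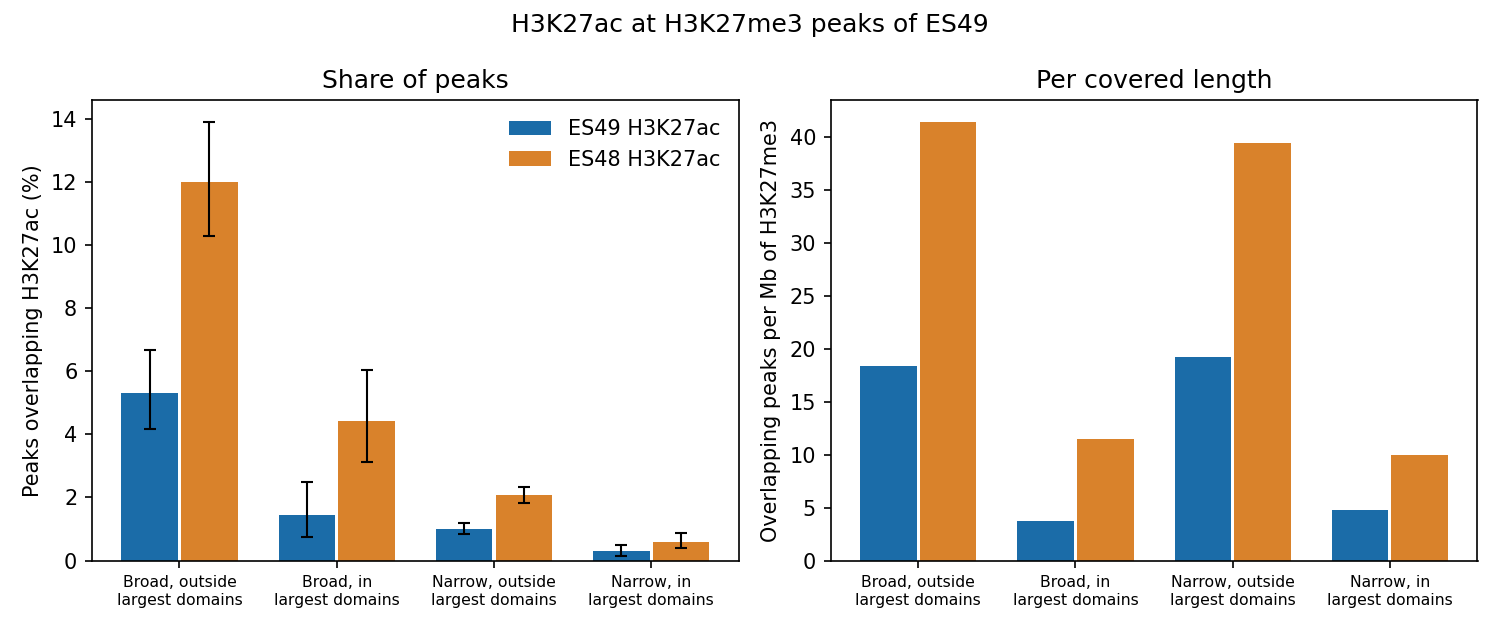
H3K27me3 peaks of ES49 that overlap H3K27ac of ES49 (blue) or ES48 (orange), as a percentage of peaks with 95% Clopper-Pearson intervals (left) and as overlapping peaks per Mb of H3K27me3 covered (right), by width and position. On the left the broad peaks outside the largest domains stand highest, at 5.32% and 12.0%; on the right they stand level with narrow peaks outside the domains.

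Among the 1316 peaks themselves, acetylation was less frequent the more H3K27me3 peaks the stretch held. Of the 193 lone peaks, 22 (11.4%, 7.28 to 16.7) met ES49 H3K27ac. The share was 5.45% (3.71 to 7.70) in stretches of 2 to 4 peaks, 4.11% (2.32 to 6.69) in stretches of 5 to 9 and 1.44% (0.298 to 4.16) in stretches of 10 or more. In ES48 the same order held, with 38 lone peaks (19.7%, 14.3 to 26.0), then 12.9%, 9.59% and 6.73% (3.73 to 11.04). The intervals of the lone peaks and of the stretches of 10 or more were apart in both lines and those of neighbouring classes overlapped. The median widths of these classes ranged from 2232 to 2597 bp and showed no such order. By length, 3.66% of the lone peaks' bases were acetylated in ES49 and 0.295% of those in stretches of 10 or more, and in ES48 9.73% and 3.50%. Without chromosome 11 the ES49 shares were 9.44%, 3.59%, 3.69% and 1.73%, so the order of the middle classes turned.

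**Figure D3:**
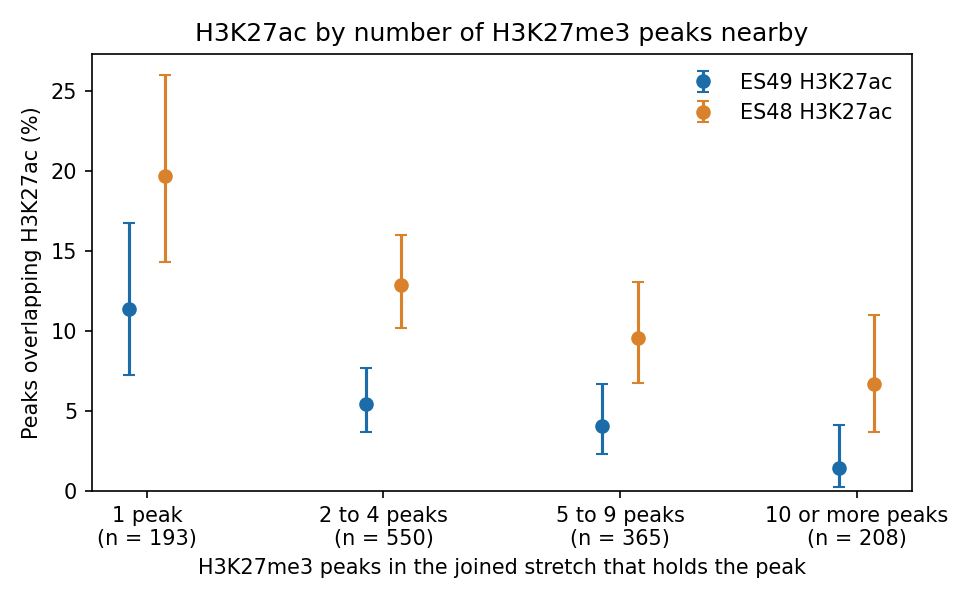
Percentage of the broad H3K27me3 peaks outside the largest domains that overlap H3K27ac of ES49 (blue) or ES48 (orange), by the number of H3K27me3 peaks in the joined stretch that holds them; bars are 95% Clopper-Pearson intervals. Lone peaks stand highest in both lines (11.4% and 19.7%) and stretches of 10 or more peaks lowest (1.44% and 6.73%).

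By score the shares varied less. In the 25% of peaks with the lowest scores 4.56% met ES49 H3K27ac, and in the 25% with the highest 6.99% (4.48 to 10.3) did. The ES48 shares were 9.42% and 16.1% (12.3 to 20.5). Both sets of intervals overlapped. The median width was 1735 bp in the lowest 25% and 4338 bp in the highest, so the latter offered more length to overlap. By length, the highest 25% did not exceed the lowest. In ES49 2.80% of the bases of the lowest and 1.59% of those of the highest were acetylated, and in ES48 6.12% and 5.51%.

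Where acetylation met these peaks it usually took part of them. In ES49 the acetylated peak lay inside the H3K27me3 peak in 37 of 70 cases, reached over one end in 28 and covered it whole in 5. In ES48 the numbers were 73, 69 and 16 of 158. The shared stretch had a median of 499.5 bp in ES49, 21.8% of the H3K27me3 peak, and of 1174.5 bp in ES48, 43.7% of it. At least 50% of the H3K27me3 peak was acetylated in 14 cases in ES49 and 68 in ES48.

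In ES49 the acetylated peaks concerned had lower scores than their list. The 81 ES49 H3K27ac peaks that touched the set had a median width of 665 bp and a median score of 113.0, against 838 bp and 165.9 for the whole ES49 H3K27ac list. In ES48 the 174 peaks were close to their list, with 1497 against 1475 bp and a score of 533.0 against 547.5. Scores are compared within a list only.

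The share of acetylated places common to both lines was close to that of the whole list. Of the 70 peaks acetylated in ES49, 48 (68.6%, 56.4 to 79.1) were also acetylated in ES48, while these were 30.4% (23.3 to 38.2) of the 158 acetylated in ES48. Over all H3K27me3 peaks on chromosomes 1 to 19 the shares were 64.7% and 29.8%. At the 48 common places the ES49 acetylated peaks had a median score of 183.8, with 26 of 48 above the median of the ES49 list. The ES48 acetylated peaks there had a median score of 1750.4, with 36 of 48 above the median of the ES48 list. The 22 places acetylated in ES49 alone had a median ES49 score of 64.5, and 3 of 22 were above the median of the ES49 list. The 110 places acetylated in ES48 alone had a median ES48 score of 386.4, with 48 above the list median, and ES49 acetylation was a median of 67.1 kb away. The H3K27me3 peaks acetylated in both lines had a median H3K27me3 score of 1256.5, and those acetylated in neither had 874.6. Lone peaks made up 33.3% of the first kind and 13.1% of the second.

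How the share in ES48 stood to that in ES49 depended on how the lists were cut. With the ES48 list cut to its highest-scoring 11899 peaks, which cover the length of the ES49 list, 75 of the 1316 peaks (5.70%, 4.51 to 7.09) met ES48 H3K27ac, beside the 70 (5.32%) in ES49. That cut took low-scoring peaks from the ES48 list alone, and the ES49 list stayed whole. With the upper 50% of each H3K27ac list by score ES49 acetylation met 30 peaks (2.28%) and ES48 acetylation 87 (6.61%).

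The peak with the longest overlap in both lines was chromosome 11, 120094021 to 120102018, which is 7998 bp wide with an H3K27me3 score of 3100. ES49 acetylation covered 7250 bp of it, with a largest peak of 5086 bp at 120094542 to 120099627. ES48 acetylation covered all of it with a peak of 16849 bp, and both acetylated peaks had a score of 3100, so both marks had high scores over the same stretch. Next in both lines was chromosome 17, 39979797 to 39983664, with 3868 bp shared in ES49 and 3816 bp in ES48. That place and chromosome 1, 87487588 to 87490085 (2498 bp shared), both among the 5 longest in ES49, also held EWS-FLI1 peaks, described below. On chromosome 18, 36047026 to 36051974 (4949 bp, score 1968.6) shared 2714 bp with ES49 and 3646 bp with ES48 acetylation. On chromosome 11, 94333812 to 94335855 (2044 bp, score 1259.9) shared 1991 bp with ES49 and all 2044 bp with ES48 acetylation. A further peak of chromosome 11, 120046437 to 120047951 (1515 bp, score 308.8), named after its values were seen, lay wholly within ES49 and ES48 acetylated peaks of 6487 and 8730 bp, both with a score of 3100.

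Other peaks had a long overlap with ES48 acetylation and a short one or none with ES49 acetylation. Chromosome 10, 119910905 to 119915682 (4778 bp, H3K27me3 score 3100), shared 795 bp with ES49 acetylation. The ES49 peak with the longest overlap there was 435 bp wide with a score of 62.9. The same place held a 3335 bp ES48 peak with a score of 3100. Chromosome 12, 120083881 to 120089493 (5613 bp, score 3100), held a 3649 bp ES48 acetylated peak with a score of 2008.2, and the nearest ES49 acetylation was 542.5 kb away. Further places of this kind, picked after their values were seen as the longest overlaps in ES48 with none in ES49, were chromosome 5, 3340852 to 3344896, a lone peak with 2696 bp shared and ES49 acetylation 198.6 kb away, and chromosome 4, 138008782 to 138012620, with 2762 bp shared. At chromosome 2, 26356924 to 26359663, 2706 bp were shared with ES48 acetylation, and an ES49 acetylated peak with a score of 873.7 lay 2.77 kb away. At chromosome 11, 4165476 to 4168727, 3137 bp were shared with an ES48 peak of 8707 bp with a score of 3100, and ES49 had a 389 bp peak 4.95 kb away. H3K27me3 was not mapped in ES48, so whether these places carry it there is not known from these lists.

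The longest overlaps in ES49 with none in ES48, also picked after their values were seen, were shorter. At chromosome 5, 115641780 to 115645551 (3772 bp, score 1889.1), an ES49 acetylated peak of 1135 bp with a score of 166.3 lay inside, and ES48 acetylation was 3.49 kb away. At chromosome 11, 116391082 to 116395857 (4776 bp, score 3100), the ES49 peak was 1028 bp with a score of 122.8.

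Along the surroundings of the peaks, acetylation was higher over the middle than a few kilobases away, and higher again at greater distance. In ES49, H3K27ac lay over the middle of 1.82% of the peaks, over 0.760% of the positions 5 kb away and over 3.00% of those 50 kb away. In ES48 the middle was acetylated in 7.14%, positions 5 kb away in 1.67% and 50 kb away in 3.72%. The middle of broad peaks in the largest domains was acetylated in 0.358% for ES49 and 1.79% for ES48. The nearest H3K27ac peak was a median of 55.5 kb away in ES49 (quartiles 18.5 and 147.2 kb) and 48.3 kb away in ES48 (13.3 and 120.2 kb). For broad peaks in the largest domains the medians were 61.3 kb in ES49 and 58.3 kb in ES48. Their upper quartiles, 98.5 and 98.4 kb, were below those of the peaks outside. For the narrow peaks outside the largest domains the medians were 73.9 kb in ES49 and 65.6 kb in ES48. Of the broad peaks outside that did not overlap H3K27ac, 20 of 1246 in ES49 and 17 of 1158 in ES48 had it within 1 kb.

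**Figure D4:**
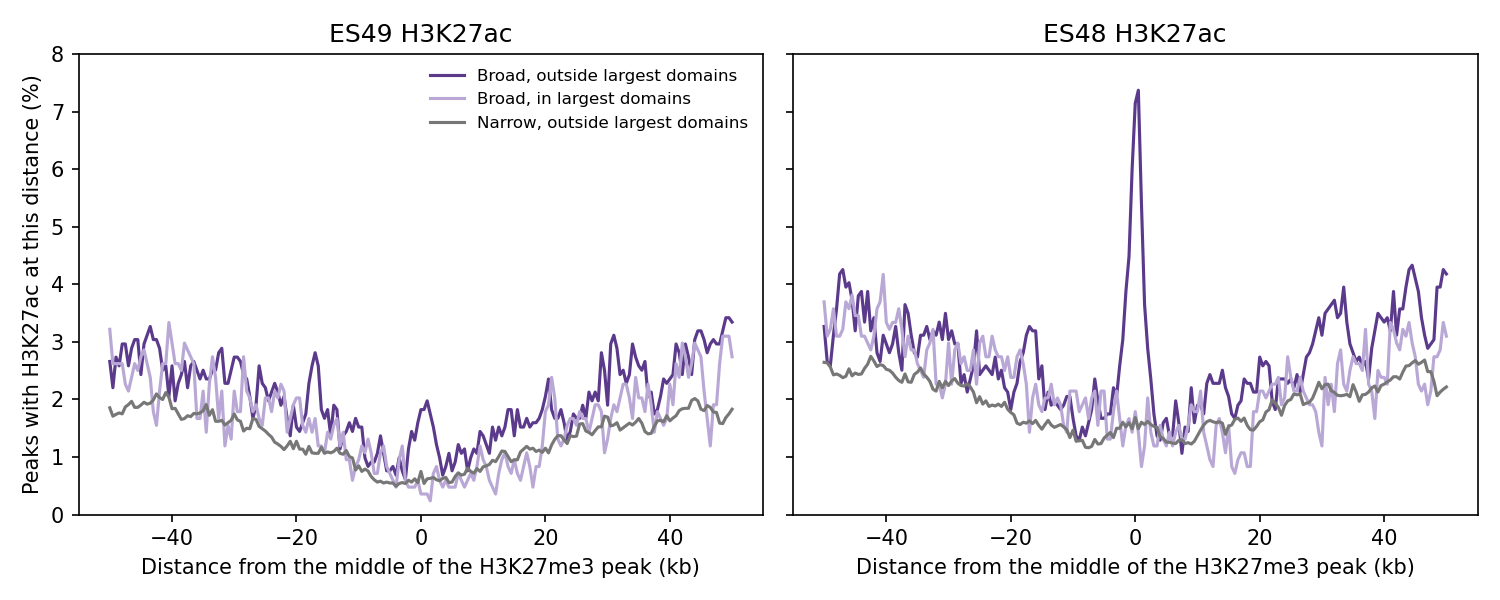
Percentage of H3K27me3 peaks with an H3K27ac peak (vertical axis) at each distance from their middle (horizontal axis, kb), in ES49 (left) and ES48 (right). For the broad peaks outside the largest domains, acetylation over the middle reaches 1.82% in ES49 and 7.14% in ES48, above the 0.760% and 1.67% found 5 kb away.

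The peaks were spread over all 19 autosomes, from 23 on chromosome 19 to 136 on chromosome 11 and 135 on chromosome 2. Chromosome 11 had the highest density, 1.15 per Mb, and chromosome 16 the lowest, 0.284 per Mb. The share of broad peaks that lay outside the largest domains differed widely, from 38.2% on chromosome 11, 40.1% on chromosome 2 and 43.7% on chromosome 5 to 93.4% on chromosome 8. This ratio follows from where the largest domains lie and is a description.

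Acetylated peaks of the set were most frequent on chromosomes 11 and 18. Chromosome 11 held 10.3% of the 1316 peaks, but 20 of the 70 acetylated in ES49 (28.6%) and 29 of the 158 acetylated in ES48 (18.4%). Over all H3K27me3 peaks of the autosomes it likewise held 55 of the 221 acetylated in ES49 (24.9%) and 88 of the 480 acetylated in ES48 (18.3%), so the peaks of the set were close to the whole list in this. Its share acetylated in ES49 was 14.7% (9.22 to 21.8), that of chromosome 18 was 14.9% (7 of 47, 6.20 to 28.3), and chromosomes 6 and 19 had 0 of 61 and 0 of 23. Over all H3K27me3 peaks the ES49 shares were 1.99% on chromosome 11 and 2.23% on chromosome 18, against 1.14% on chromosomes 1 to 19 together. Chromosome 11 also held 11.1% of the autosomal ES49 H3K27ac peaks and 14.2% of the H3K27me3 peaks, and its part in the result was not tested beyond leaving it out. Without it 50 of 1180 peaks (4.24%) met ES49 H3K27ac and 129 (10.9%) met ES48 H3K27ac, against 0.969% and 3.72% of broad peaks in the largest domains.

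**Figure D5:**
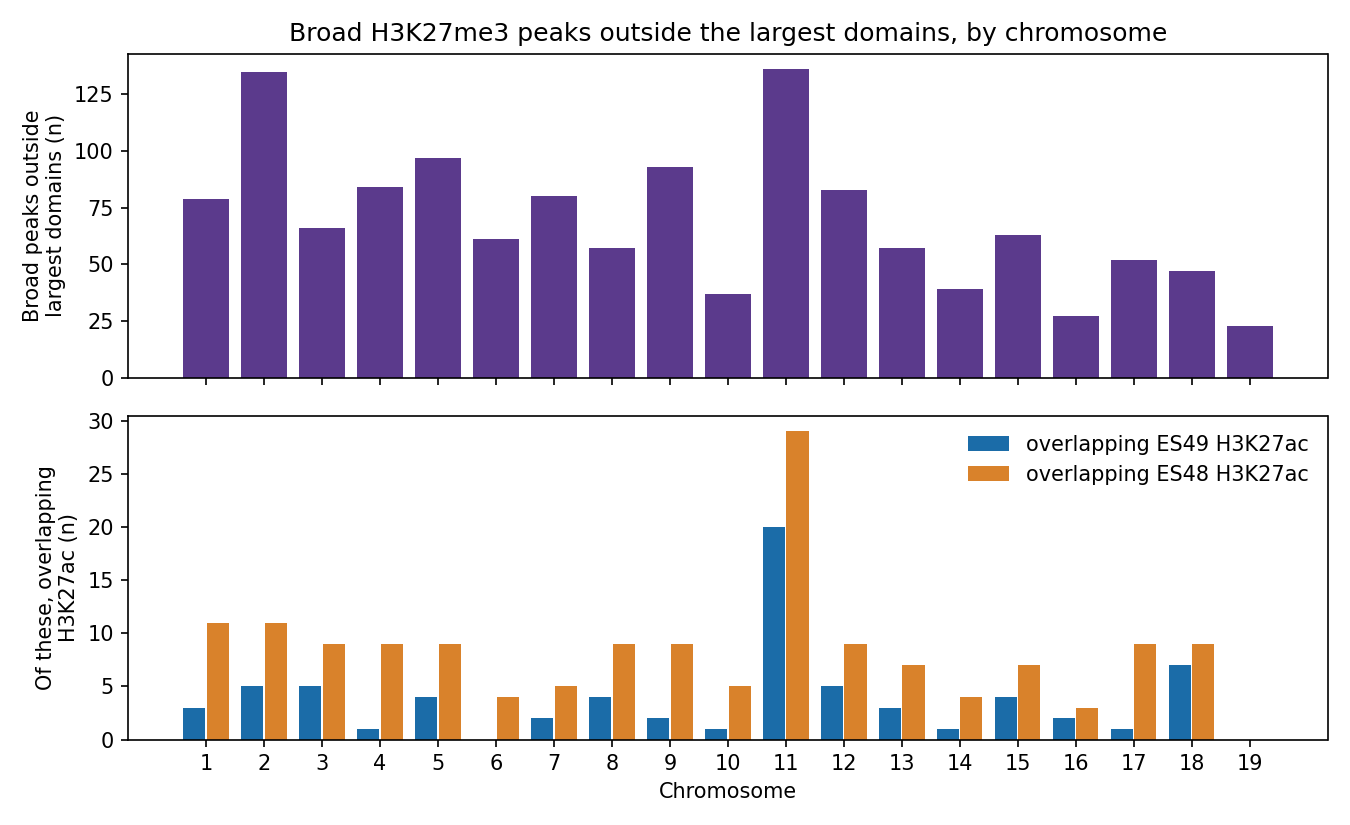
Number of broad H3K27me3 peaks outside the largest domains per chromosome (top) and of those overlapping H3K27ac of ES49 (blue) or ES48 (orange, bottom). Chromosomes 11 and 2 have the most peaks (136 and 135), and chromosome 11 alone has 20 acetylated in ES49 and 29 acetylated in ES48.

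EWS-FLI1 met few of these peaks, as it met few peaks of the H3K27me3 list as a whole. In either line 3 of 1316 (0.228%, 0.0470 to 0.665) overlapped an EWS-FLI1 peak, close to the 0.242% of all H3K27me3 peaks on chromosomes 1 to 19. Per covered length these were 0.786 peaks per Mb. The 6 broad peaks in the largest domains that met EWS-FLI1 were 1.86 per Mb. Among narrow peaks, the 34 outside the domains were 5.24 per Mb and the 4 inside were 1.37 per Mb. From the 1316 peaks, the nearest EWS-FLI1 peak was a median of 5.62 Mb away in ES49 and 2.61 Mb away in ES48. Chromosome 1, 87487588 to 87490085, and chromosome 17, 39979797 to 39983664, had peaks of all 4 other lists over most of their width. The ES49 EWS-FLI1 peaks there were 2628 and 5880 bp wide, against a median of 230 bp for that list. Input DNA was not examined at these places, so whether their signal is specific to each antibody was not tested. The ES49 EWS-FLI1 score was 1693.1 at the first and 1382.9 at the second. On chromosome 17 the ES48 EWS-FLI1 score was 3100 while the H3K27me3 score was 437.4. At chromosome 11, 119183171 to 119185195, there was an ES48 EWS-FLI1 peak of 215 bp with a score of 57.9, near the lowest of its list, and no acetylation. Without the pair of places found in all 5 lists, 68 of 1314 peaks met ES49 H3K27ac, 156 met ES48 H3K27ac and 1 (0.0761%) met EWS-FLI1 in either line. The comparison sets were not recounted for EWS-FLI1 in this way.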

How the data were processed

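Of the 6 samples, 5 gave a ChIP-seq peak list, each list from 1 sample. The deposited lists give a chromosome, start, end, peak name and score for each peak. The submitters' processing notes name mm9, Bowtie 1.1.1 and SAMtools 1.2. Peaks carry MACS names in the deposited lists; how MACS was run is not given in the sources used here. The score is the caller's own value on a scale the authors do not state, so scores were compared within a list only.

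Peaks with gaps under 12.5 kb were joined. A peak overlapped another when at least 1 bp was shared. Shares carry 95% Clopper-Pearson intervals, and no test was made, since each antibody and line is 1 sample. Grouping of the samples followed their titles. The peaks and comparisons were chosen with earlier results of these data known.

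Named regions are the 10 highest-scoring, 5 widest and 5 most isolated peaks, the 5 longest overlaps with H3K27ac per line, those with EWS-FLI1 and those nearest the width limit; some of these are given by count, and exceptions are marked. Joining, overlap and selection were tested on simulated lists. The gene tables at hand are of GRCm38, so the planned work on genes, transcription starts and sequence was not run. The tools were scipy 1.17.1 and numpy 2.4.6 for intervals, pandas 2.3.3 for joining and matplotlib 3.10.9 for drawing, under Python 3.11.15.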

Additional observations from a re-analysis of the deposited data

How the results depend on the processing

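Of 84 values recomputed under other settings, 68 stayed within the interval of the value reported, or within 1.5 times for the number of peaks. Keeping only peaks in the upper 50% of the H3K27me3 list by score left all 1316 in place. Its values for the 7 results are counted in both totals but could not move. Joining at 5 or 25 kb, ranking domains by span and ranking them on chromosomes 1 to 19 alone moved none of the 7 results beyond that. A width minimum of 1000 bp gave 2132 peaks with a median width of 1805.5 bp, 11.8% of them alone and 9.24% overlapping ES48 H3K27ac, and a minimum of 2000 bp gave a median width of 2997 bp. Leaving out the 100 or the 400 largest domains gave 12.3% or 18.9% lone peaks. An overlap of 50% of the shorter peak gave 3.95% in ES49 and 2.51% in both lines, and counting H3K27ac within 1 kb gave 6.84% and 4.86%. The upper 50% of the H3K27ac lists by score gave 2.28% in ES49, 6.61% in ES48 and 1.67% in both lines. The ES48 list cut to the covered length of the ES49 list, chosen after seeing the data like the settings without chromosome 11, without places in all lists and with autosomal ranking, gave 5.70% in ES48 and 2.58% in both lines. Smaller lists offer less to overlap; other causes were not tested. Under each overlap setting the share was higher than in broad peaks of the largest domains, for ES49 at 2.28 against 0.715% with the upper 50% and 3.95 against 1.19% with the 50% overlap. Per covered length, broad and narrow peaks outside the domains were less alike within 1 kb, at 23.6 and 38.9 per Mb for ES49. Read depth, which limits how many weak peaks are called, is unknown. No paired analysis was possible because each group holds 1 sample.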

Other observations

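The peaks of chromosome 11 acetylated in ES49 lay in its distal part, while those acetylated in ES48 lay on both sides of 80 Mb. This split was seen in the data and not planned. At or past 80 Mb, 20 of 85 broad H3K27me3 peaks outside the largest domains met ES49 H3K27ac and 21 met ES48 H3K27ac. Below 80 Mb, 0 of 51 met ES49 H3K27ac and 8 met ES48 H3K27ac. The 20 ES49 places ran from 89.2 to 120.1 Mb. Past 80 Mb the lists held 1810 H3K27me3, 2017 ES49 H3K27ac and 1208 ES48 H3K27ac peaks, and below it 954, 1192 and 976. The part of peak density in this was not tested, and the acetylated share of all H3K27me3 peaks on each side was not counted.

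Peaks found in all 5 lists were few. On chromosomes 1 to 19, 15 H3K27me3 peaks overlapped the 4 other lists, and 2 of them were broad peaks outside the largest domains.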
